A study of Sus scrofa with 2 samples.

Results

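Chromosome 10 is the autosome on which the methylation levels of the 2 libraries differed most when every sequencing read was given the same weight. Its members here are the CpG cytosines of chromosome 10 that both libraries list, 261920 of the 7002086 cytosines shared in the whole series. The data are whole-genome bisulfite sequencing of longissimus dorsi, a muscle along the back, in female Tibetan pigs, with 1 pig and 1 library per group. The high-altitude pig ranged freely in the Tibetan highland, at 4000 m on average, and the low-altitude pig received normal daily feed on the Chengdu plain, at 500 m on average, and came from a line raised there for generations. Altitude, feeding, housing and descent therefore cannot be told apart, and neither can the pig and its library. With 1 library per group there was no test of any difference, and intervals below cover counting error only. The chromosome was chosen by its difference in level over reads in these same libraries, so that difference is given as a description.

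Cytosines that precede a guanine carry most of the DNA methylation of mammals, and in differentiated tissues such as muscle most of them are methylated in most cells. Bisulfite turns unmethylated cytosine into uracil, so the share of reads that still show cytosine gives the methylation level. A chromosome can be summarised with each cytosine counting once, or with each read counting once. The mean over reads leans towards deeply covered cytosines, and sequence that occurs in more copies than the assembly holds can collect the reads of all copies at 1 place. Positions are those of the deposited files, whose genome build no source used here names. They ran 9.78 Mb past the last chromosome 10 gene of the gene table at hand (assembly Sscrofa11.1), so no gene was assigned and no genome sequence was used here.

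On chromosome 10 the high-altitude library listed 399670 cytosines (3677189 reads) and its counterpart from low altitude 387126 (3584368 reads), with a median of 7 reads per listed cytosine in both. A cytosine is listed from 5 reads and 1 methylated read upward, so unmethylated CpGs are not part of any value. At shared cytosines the level over reads was 72.7% at high altitude (2753791 reads) and 70.9% at low altitude (2757256 reads), a difference of −1.88 points (low minus high, 95% interval −1.96 to −1.81). With each cytosine counting once, the levels were 74.4% and 73.3%, a difference of −1.13 ± 0.119 points (SE over 79 bins of 1 Mb). The chromosome was thus lower in the low-altitude pig by either measure, and the difference over reads went beyond that over cytosines by −0.754 points, a gap called the excess below.

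The difference over reads set chromosome 10 apart from the other 17 autosomes, and the difference over cytosines did not. By the mean over cytosines it held place 6, counted from the most negative, with the others between −1.33 and −0.692 points. Over reads the others ran from −1.30 to 0.742 points, with a median of −0.890 points. Their excess had a median of 0.0629 points and ran from −0.159 to 1.43 points, so that most other autosomes had a smaller loss over reads than over cytosines. Autosomes 15, 16 and 18 departed in the direction opposite to chromosome 10, by 0.617, 1.04 and 1.43 points.

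**Figure D1:**
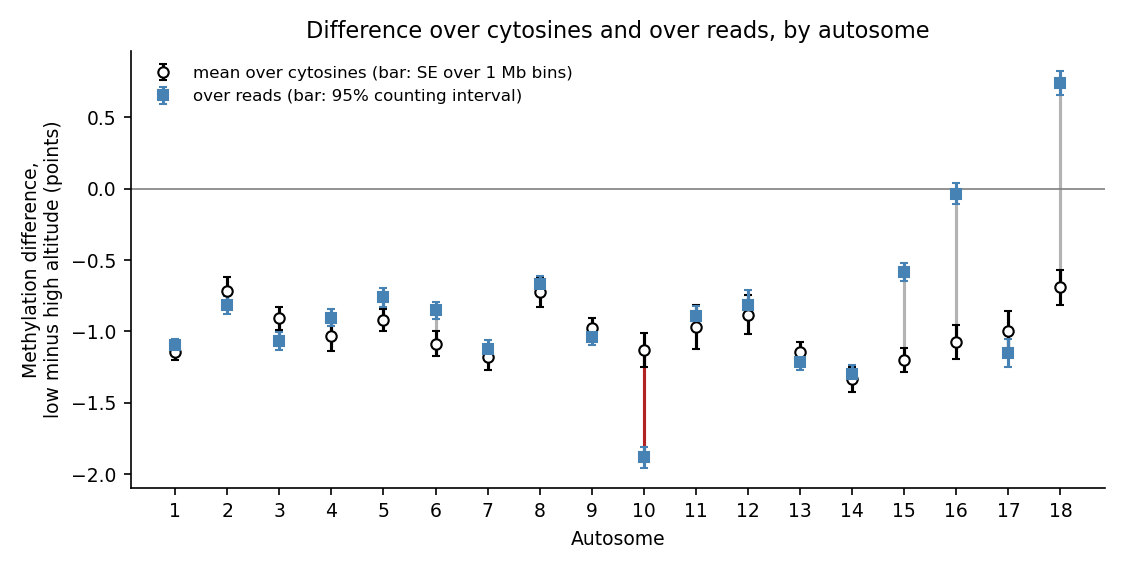
Methylation difference (low minus high altitude, percentage points) of each autosome, as the mean over shared cytosines (open circles, bars: SE over 1 Mb bins) and over reads (squares, bars: 95% counting interval). Chromosome 10 has an ordinary open circle at −1.13 points and the lowest square, at −1.88 points.

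The excess was next split into a part that comes from where the reads lie and a part that comes from methylation. The weight term sums, over cytosines, the change in their share of the chromosome's reads times their level relative to the chromosome's mean. The level term sums the level difference of each cytosine times the surplus of its mean read share over an equal share, and both add up exactly to the excess. On chromosome 10 the weight term was −0.694 points and the level term −0.0594 points. The excess was therefore made of reads that shifted towards cytosines of low methylation in the low-altitude library. With the mean read share of both libraries applied to both, the difference was −1.19 points, rank 5 from the most negative of 18 autosomes, whose other values ran from −1.73 to −0.177 points. The weight term of chromosome 6 was nearly as negative, at −0.676 points, and stood beside a level term of 0.909 points in the opposite direction.

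The shift of reads could be seen at cytosines with a level under 40% over both libraries. They were 7.81% of the shared cytosines of chromosome 10, within the range of 6.42 to 9.13% on other autosomes. They took 9.82% of the reads at high and 10.8% at low altitude. On the other autosomes the same change ran from −2.12 to 0.243 points. Cytosines under 20% had on average 18.8 reads at high and 22.9 reads at low altitude, 1.22 times as many. At 80 to 100% the averages were 9.998 and 9.81 reads, 0.981 times as many. Elsewhere in the autosomes the lowest level class had slightly fewer reads in the low-altitude library, with a ratio of 0.932.

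By depth, the excess lay in cytosines with 10 to under 200 reads (mean of both libraries), and not in the very deepest. The 12324 cytosines with 20 to under 60 reads, 4.71% of the chromosome's, contributed −0.417 points. On other autosomes this class contributed between −0.145 and 0.151 points. The 633 cytosines with 60 to under 200 reads contributed −0.287 points, against −0.0714 to 0.494 points elsewhere. Cytosines with 10 to under 20 reads contributed −0.199 points, against −0.147 to 0.00434 points. Chromosome 10 was the lowest of the 18 in each of these 3 classes. These contributions are parts of the difference over reads by which the chromosome was chosen, so its rank follows in part from that choice. The 50 cytosines with 200 reads or more added −0.0414 points, inside the range of −0.190 to 0.773 points of the other autosomes. The shallow classes under 10 reads contributed 0.112 and 0.0794 points, also within the others' ranges.

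Deeper cytosines of chromosome 10 were less methylated, and the low-altitude library had more reads there. The level over both libraries was 75.5% under 7 reads, 63.0% at 20 to under 60 reads and 39.1% at 60 to under 200 reads. In that last class, 50389 reads at high and 69065 reads at low altitude gave a ratio of 1.37. The ratio was 1.09 at 20 to under 60 reads, and 0.975 to 0.993 in the 3 classes under 20 reads. On other autosomes the class of 60 to under 200 reads had levels from 28.7 to 78.2% with a median of 41.0%, and ratios from 0.613 to 1.48 with a median of 1.01. Both the level and the balance of reads at this depth thus varied widely among the autosomes, and chromosome 10 lay within both ranges. At 20 to under 60 reads, however, its ratio of 1.09 lay above the others' range of 0.940 to 1.01. At 10 to under 20 reads its ratio of 0.982 also lay above theirs, 0.963 to 0.978. In the remaining classes its ratio lay within the others' ranges.

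**Figure D2:**
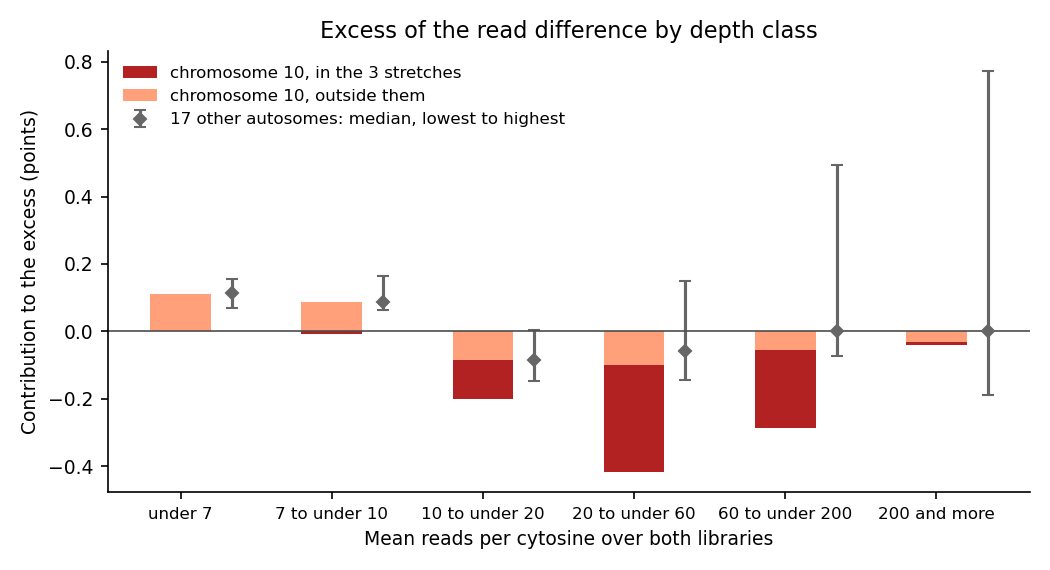
Contribution to the excess (points) by depth class, with bars for chromosome 10 divided into 3 stretches described in the text (dark) and the rest (light), and diamonds with lines for the median and range of 17 other autosomes. The bars at 20 to under 60 and 60 to under 200 reads, −0.417 and −0.287 points, fall below the range of the other autosomes and are mostly dark. Chromosome 10 was chosen by its difference over reads, to which these parts add.

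Along the chromosome the excess came from few places. Of 790 bins of 100 kb, the 6 with the most negative contribution made 65.5% of the excess with 0.958% of the shared cytosines, and the first 12 made 95.8% with 1.51%. The other bins largely cancelled. In all, 383 bins contributed −1.07 points and 407 bins 0.311 points. All of the first 12 except 1 fell into 3 stretches of low methylation and surplus reads, one of them interior and long, the other two near the end of the chromosome. The stretches were drawn after their values were seen, as 100 kb bins under 50% with at least 1.2 times as many reads at low altitude, joined across at most 3 bins. Together they held 4648 cytosines, 1.77% of the chromosome's, and contributed −0.684 points, 90.7% of the excess.

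**Figure D3:**
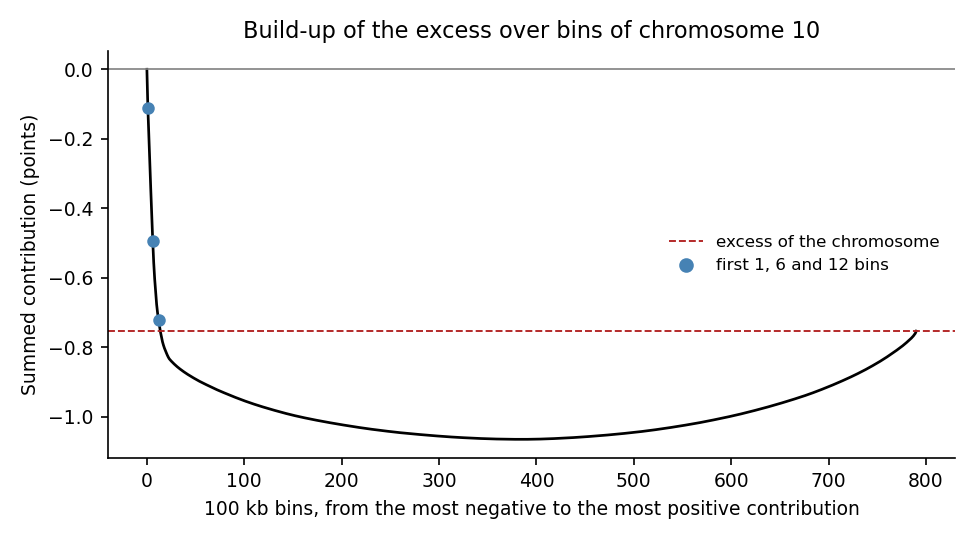
Summed contribution to the excess (points) as the 790 bins of 100 kb are added from the most negative to the most positive, with dots after 1, 6 and 12 bins and a dashed line at the excess of the chromosome. The curve reaches −0.722 points after 12 bins, then drifts to −1.07 points over all 383 negative bins and returns to −0.754 points.

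The first stretch ran from 22200001 to 23400000 on chromosome 10 and made 48.7% of the excess. Its 2819 shared cytosines had 51556 reads at high and 79620 at low altitude, 1.54 times as many. The level over reads was 38.8% (95% Wilson interval 38.4 to 39.2) and 37.4% (37.1 to 37.8), so it was poorly methylated in both pigs. The difference was −1.35 points. The intervals did not overlap, but they treat reads at each cytosine as independent and may be too narrow. Over cytosines the levels were 44.2% and 41.6%, a difference of −2.65 points. Relative to chromosome 10 outside the stretches, the mean depth was 1.77 times as high at high altitude and 2.78 times as high at low altitude. The contribution was −0.367 points, of which −0.350 points was the weight part. The ratio of reads was 1.54 on the plus and 1.54 on the minus strand.

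Within the first stretch the surplus changed from place to place. Its leading bin, from 22200001 to 22300000, also led the whole chromosome with −0.112 points. That bin had 8890 and 19830 reads, a ratio of 2.23, and 519 of its 546 cytosines (95.1%) had more reads in the low-altitude library. Outside the stretches 41.1% of cytosines did. The stretches were drawn by surplus reads, so counts of cytosines or pieces with more reads follow in part from that choice. The levels of the leading bin were 43.8% (42.8 to 44.9) and 44.5% (43.8 to 45.2), a difference of 0.666 points in the direction opposite to the chromosome. The bin before the stretch had a ratio of 0.893 and levels of 71.2% and 71.0%, so both the depth and the level changed at this edge. Among 45 pieces of 20 kb with at least 10 cytosines, the ratio ran from 0.557 to 2.71 with a median of 1.51, and 39 were above 1. From 22400001 to 22500000 the libraries were close, with 1659 and 1613 reads, and from 22900001 to 23000000 the high-altitude library had slightly more, with 10894 and 10496 reads. At the far edge, the last piece had a ratio of 2.44, and the bin after the stretch a ratio of 0.933 with levels of 47.1% and 47.4%. The surplus thus ended there while the low methylation continued.

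The second bin by contribution, from 22600001 to 22700000, lay in the same stretch. It had 7143 and 11696 reads, a ratio of 1.64, at levels of 33.1% (32.0 to 34.2) and 28.8% (28.01 to 29.6), and contributed −0.0806 points. Single cytosines added little each. The 5 with the largest contribution in the leading pair of bins ran from −0.00302 to −0.00175 points. The first, at position 22245458 on the plus strand, had 26 of 80 reads methylated at high and 47 of 223 at low altitude. The next, at 22245339, had 8 of 72 and 29 of 184 reads. Reads were more numerous at low altitude at all 5, and 4 of the 5 had a lower level there. They were picked by contribution in bins with surplus reads, so these counts follow in part from the choice.

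**Figure D4:**
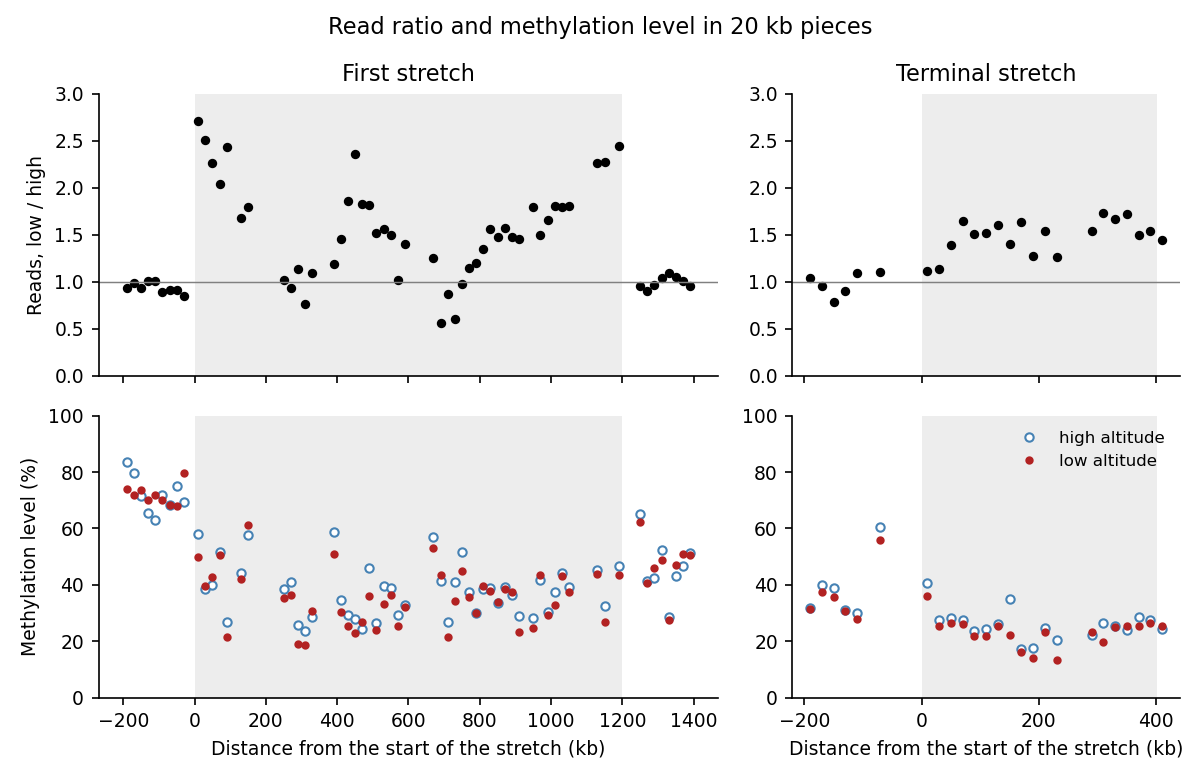
Ratio of reads (low over high altitude, top) and methylation level over reads (bottom, %, open blue: high altitude, red: low altitude) in 20 kb pieces with at least 10 shared cytosines, against the distance from the start of the first and of the terminal stretch, which are shaded with up to 200 kb at the sides. The ratio rises to 2.71 at the start of the first stretch and stays above 1 in all pieces of the terminal stretch, while the levels of both libraries run close together. The stretches were drawn by surplus reads, so ratios above 1 follow in part from that choice.

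The terminal stretch reached from 78700001 to the last cytosine listed on the chromosome, at 79102067, and made 30.1% of the excess. It was the least methylated of the 3, with 27.4% (26.9 to 27.96) at high and 24.95% (24.5 to 25.4) at low altitude over 1029 cytosines. Reads numbered 28131 and 40076, a ratio of 1.42, and 870 cytosines (84.5%) had more reads in the low-altitude library. All 19 pieces of 20 kb had a ratio above 1, from 1.11 to 1.73. Outside the stretches, 41.1% of cytosines had more reads at low altitude, and 1243 of 3333 pieces had a ratio above 1. The terminal stretch was drawn by surplus reads, so its counts follow in part from that choice. The bin from 78700001 to 78800000 contributed −0.0754 points with 13357 and 17292 reads, at 29.4% and 26.8%. The bin from 79000001 to 79100000 contributed −0.0712 points with 6791 and 10646 reads, at 27.2% and 25.2%. The mean depth of the stretch was 2.64 and 3.83 times that of the chromosome outside the stretches.

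The second stretch, from 76800001 to 77000000, combined a surplus of reads with a loss of methylation. Its 800 cytosines had 14801 and 19628 reads, a ratio of 1.33. The level fell from 42.8% (42.0 to 43.6) at high to 34.6% (33.9 to 35.3) at low altitude, a difference of −8.22 points over reads and −7.26 points over cytosines. Its bin from 76900001 to 77000000 had the largest loss over reads of any bin with at least 100 cytosines on the chromosome, from 41.6% to 33.1%, and contributed −0.0773 points. The weight part of that bin was −0.0579 and the level part −0.0194 points, so here too most of the contribution followed the reads. The stretch made 12.01% of the excess. The bin after it had a similar loss over reads, from 66.9% to 59.6%, with a ratio of 1.04 and a contribution of −0.00281 points. Over cytosines the difference in that bin was smaller, at −3.63 points.

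In the 3 stretches together the surplus of reads, by which they were drawn, appeared at cytosines of every methylation class. The ratio of reads was 1.46 at cytosines under 20%, 1.54 at 60 to under 80% and 1.36 at 80 to 100%, with the classes from 20 to under 60% inside this range. Outside them, the ratio was 1.04 under 20% and 0.980 to 0.990 in the other classes. The stretches took 3.43% of the reads of chromosome 10 at high and 5.05% at low altitude. They were also lower in methylation at low altitude by the mean over cytosines, with 42.1% and 38.7%, a difference of −3.42 points against −1.09 points in the rest of the chromosome. This loss weighed little on the chromosome, since the level part of the stretches was −0.0577 points and their weight part −0.626 points.

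The lists themselves also changed in the stretches. The stretches were drawn by surplus reads at low altitude, so the numbers below are not separate from that choice. The high-altitude library listed 5512 and the low-altitude library 6642 cytosines there, 1.21 times as many, while outside them the ratio was 0.965. Listed in the low-altitude library only were 1994 cytosines, and in the high-altitude library only 864. In the first stretch these numbers were 1390 and 498, and in the terminal stretch 360 and 140. In the second they were close, at 244 and 226. Over all listed cytosines, shared or not, the ratio of reads in the stretches was 1.56. Deeper coverage brings more cytosines over the minimum for listing, and its part in these numbers was not tested.

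The remaining bin of the leading 6, from 29400001 to 29500000, differed from the stretches. It was the deepest of chromosome 10, with means of 90.6 and 101.00 reads over 390 cytosines, and had up to 802 reads at a cytosine. Nearly all of these reads lay in the 20 kb from 29440001, with 33345 at high and 37213 at low altitude. The ratio in the bin was only 1.11, with levels of 45.5% (44.9 to 46.0) and 42.6% (42.2 to 43.1), while its neighbours were methylated at 83.1 to 85.5%. It contributed −0.0773 points, of which −0.0324 points was the level part, a larger share than in the stretches.

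By its definition, the weight term is small where surplus reads lie at levels near the chromosome's mean. The bin described next is a single example of this and does not test it. The bin from 21600001 to 21700000 had 17361 and 24255 reads, a ratio of 1.40, at levels of 66.3% and 64.0%. Over cytosines its levels were 66.0% and 60.1%, a difference of −5.93 points. The surplus lay mainly in the 20 kb from 21600001, with a ratio of 1.63 and a difference over reads of −0.252 points. In the pieces from 21640001, 21660001 and 21680001 the differences were −10.9, −12.5 and −10.2 points, at ratios of 1.05 to 1.08. The whole bin contributed −0.0183 points, rank 13 from the most negative. The 3 bins with the most positive contribution were small in effect. From 23400001 it was 0.00637 points, from 22800001, inside the first stretch, 0.00387 points with 1014 and 788 reads, and from 75800001 0.00373 points. The last was highly methylated, at 84.2% and 83.7%, with 2801 and 3640 reads.

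Surplus reads in poorly methylated bins were more frequent on chromosome 10 than on the autosomes as a whole. Of its 722 bins with at least 100 shared cytosines, 11 (1.52%) had at least 25% more reads at low altitude, against 0.312% of 21122 bins over all autosomes. Of these 11, 10 had a level under 50%. That is 1.39% of the bins of chromosome 10, against 0.166% over all autosomes, where 35 bins met both conditions. The next highest share was 0.437%, on chromosome 2. None of these 722 bins had at most 0.8 times as many reads, against 0.308% over all autosomes. Bins under 50% numbered 23 on chromosome 10, with a median ratio of 1.11 and a summed ratio of 1.28. On the other autosomes 271 such bins had a median ratio of 0.962 and a summed ratio of 0.922. Chromosome 10 was chosen by its difference over reads, to which such bins add, so its higher share follows in part from that choice. The shares over all autosomes include its own bins. The thresholds of read ratio were set after the values were seen, and these shares were not tested.

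**Figure D5:**
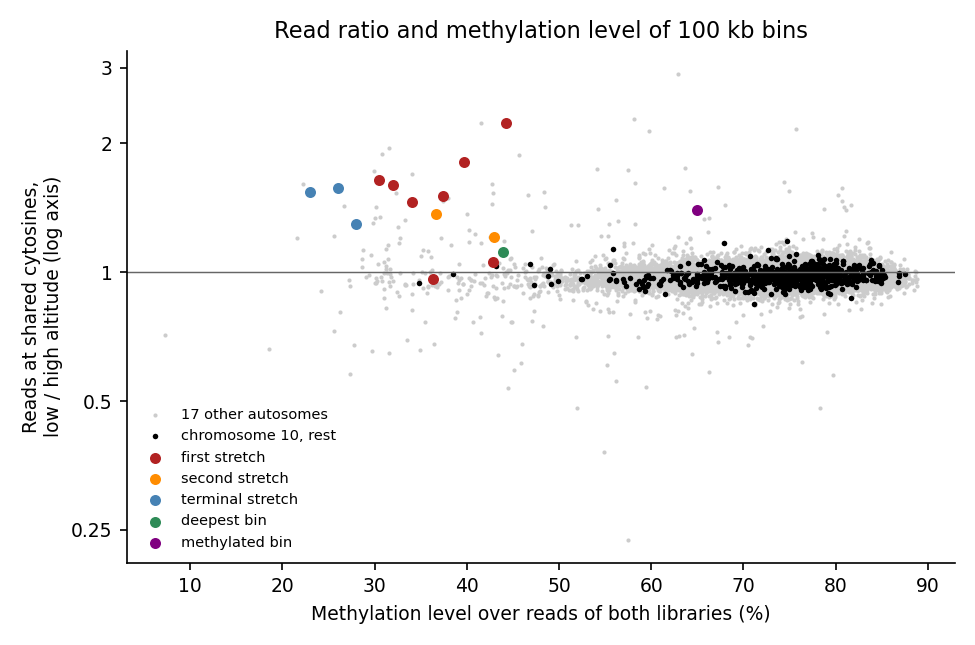
Reads at shared cytosines in the low-altitude over the high-altitude library (log axis) against the methylation level over both libraries (%), for 100 kb bins with at least 100 shared cytosines on chromosome 10 (black, stretches and 2 single bins coloured) and on 17 other autosomes (grey). Most bins lie near a ratio of 1 and above 50%. Most bins of the 3 stretches lie above 1.2 and under 50%, the limits by which the stretches were drawn.

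The bins with the largest methylation difference were mostly others than those that made the excess. On chromosome 10, 20 of 722 bins (2.77%) were at least 5 points lower over reads in the low-altitude pig, against 2.85% over all autosomes, so the share was close to the background. Only 1 bin was at least 5 points higher, 0.139% against 0.658%. Of the 20 lower bins 1 was among the 12 that led the excess, the bin from 76900001. The other bin of the second stretch, from 76800001, was also among the 20, with −6.68 points and rank 16 by contribution. All 20 together contributed −0.120 points. Their median level was 70.3% and their median ratio of reads 0.985. The bin from 12200001 to 12300000, for example, had 83.6% and 75.3% at 1814 and 1774 reads, and the bins from 400001 and 500001 had 59.5% and 51.6%, and 60.2% and 52.0%. The bin from 500001 also had surplus reads, with a ratio of 1.13, and contributed −0.0170 points. Its difference was −8.12 points over reads and −4.51 points over cytosines.

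With the 3 stretches left out, the levels over reads of chromosome 10 were 74.0% and 72.8%, a difference of −1.19 points, and over cytosines 75.0% and 73.9%, a difference of −1.09 points. The excess that remained was −0.108 points. The stretches were drawn by low levels and surplus reads on chromosome 10 alone, so a smaller excess follows from their choice, and no rank against intact autosomes is read from it. When 100 kb bins with at least 25% more reads, or at most 0.8 times as many, at low altitude were left out on all 18 autosomes, the excess of chromosome 10 was −0.120 points. It was still the most negative, with the others between −0.0616 and 0.239 points. Its weight term was then −0.0851 points, also the most negative, with the others between −0.0562 and 0.442 points. The difference over reads was −1.20 points, rank 3 from the most negative. This setting kept the deepest bin, from 29400001, whose ratio was 1.11. In the whole chromosome that single bin contributed −0.0773 points, and all of chromosome 10 outside the 3 stretches −0.0698 points. The remaining excess is therefore not read as a trait of the whole chromosome. Without the first stretch alone the difference over reads was −1.54 points, without the terminal stretch −1.67 points and without the second −1.78 points. Here too chromosome 10 alone was trimmed, so no rank is read from these values.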

How the data were processed

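Bisulfite libraries of 1 high-altitude and 1 low-altitude pig were compared. Per the submitters' processing notes, Bismark 0.12.5 was used. No source used here names the genome build, filters on reads or how duplicates were handled. Per the file headers, the deposited columns give counts of methylated and unmethylated reads per cytosine, a methylation level as a fraction, and p-values. From the values, the fraction is the read share after removal of a non-conversion rate of 0.0292% (high altitude) and 0.0277% (low altitude). The deposited p-values were not used beyond a check that the corrected value of listed chromosome 10 cytosines was at most 0.0219 and 0.0288. All listed cytosines were in CpG context.

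Levels were computed as methylated over all reads at cytosines listed in both files, with Wilson intervals, and Newcombe intervals for differences (95%). Contributions centre levels on the chromosome's mean over both libraries. The split was tested on simulated reads with known weight and level changes. The tolerance of that check was wider than the level term of chromosome 10, so it does not vouch for terms that small. No molecular identifiers are described, and 1 read can cover several cytosines, so intervals may be too narrow. The depth was at least 10 reads at 32.5% and 31.6% of listed cytosines of chromosome 10. Bins named are the 6 most negative and 3 most positive, and cytosines the 5 largest in absolute contribution within the leading pair of bins. The members, lists and rules were chosen with earlier results of these data known. Python 3.11.15, numpy 2.4.6, pandas 2.3.3 and matplotlib 3.10.9 were used.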

Additional observations from a re-analysis of the deposited data

How the results depend on the processing

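No paired analysis was possible because each group has 1 library, and for the same reason no library could be left out. The difference over cytosines lay between −1.32 and −1.08 points in 13 alternatives. Values for the difference over reads, the excess and the weight term follow in that order. With at most 60 reads in each library they were −1.53, −0.404 and −0.375 points, and without the 1% deepest cytosines −1.35, −0.233 and −0.228. With at least 10 reads they were −2.40, −1.29 and −1.17, and with both strands of a CpG summed, which kept 35487 CpGs, −2.73, −1.41 and −1.25. Without the leading 100 kb bin they were −1.78, −0.657 and −0.587. At cytosines with equal reads in both libraries they were −1.15, −0.0666 and 0, the last by construction, and the read difference was then rank 6 from the most negative of 18 autosomes. Among the alternatives chosen after seeing the data, they were −1.19, −0.108 and −0.0778 without the 3 stretches, −1.20, −0.120 and −0.0851 without 100 kb bins of unequal reads on every autosome, and −1.62, −0.494 and −0.448 with reads above 60 counted as 60. The alternatives without the 3 stretches and without the leading bin trimmed chromosome 10 alone, so no rank is read from them. In the others the read difference was the most negative of 18 autosomes, except with equal reads (rank 6) and without bins of unequal reads (rank 3). The excess was the most negative in each of these, also with equal reads (others −0.0537 to 0.0642 points) and without bins of unequal reads (others −0.0616 to 0.239). The last setting kept the deepest bin of chromosome 10, from 29400001. At most 200 reads, each strand alone and the deposited corrected level moved these values by less than the main interval. Bins at least 5 points lower numbered 1 with 1 Mb bins, 84 with 50 kb bins and 3 at 8 points, against 20. The contribution of the bin from 75800001 was −0.000382 points on the minus strand, and the cause was not tested. Unlisted CpGs were not measured.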
